A study of Drosophila melanogaster with 3 samples.

Results

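The genes described here are 6 Drosophila genes of fatty acid and valine oxidation, whd, CPT2, Mcad, Mtpalpha, Mtpbeta and Hibch, out of 13945 protein-coding genes in the annotation. They were followed in lists of DNA regions bound by Pdp1, a transcription factor of the PAR bZIP family. A summit, the point of highest signal in a peak, was counted for a gene when it lay within 1 kb of one of the gene's transcription start sites (TSSs) or inside the gene. The authors' optimal list held 13583 summits and is labelled as IDR thresholded, a cut on reproducibility. How that cut was made is not given in the sources used here, so a listed summit need not be found in every replicate. By the counting rule above, 12 of its summits belonged to the 6 genes. The same signal values chose these 12 summits, so their number and strength are given as description and no test was made.

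The study had 1 group of 3 biological replicates. Each was a pool of whole male and female embryos, 0 to 24 h old, from flies carrying Pdp1 fused to eGFP at its C terminus, and an anti-GFP antibody was used for the immunoprecipitation. The sources used here do not give how much flanking DNA the tagged Pdp1 transgene carries. No second genotype, tissue or treatment was present, so there was nothing to compare between conditions. A whole embryo mixes many tissues, and a strong peak in few cells and a weak peak in many cannot be told apart. The depth of each replicate was unknown, and the pooled and replicate lists each held 30000 lines. The median signal was 139 in the pooled list and 86.1, 37.8 and 26.8 in replicates 1, 2 and 3. Because the signal scale differed between lists, positions were compared by rank, with rank 1 the strongest line of a list.

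Long-chain fatty acids enter mitochondria as carnitine esters. Carnitine palmitoyltransferase 1, encoded by whd, makes the ester at the outer membrane, and CPT2 turns it back into an acyl-CoA inside. Acyl-CoA dehydrogenases such as Mcad then start each round of beta-oxidation, and the trifunctional protein, built from Mtpalpha and Mtpbeta, carries out the later steps on long chains. Valine is broken down through a branched-chain keto acid dehydrogenase and then a series of CoA esters. Hibch is the hydrolase of that series that releases free 3-hydroxyisobutyrate. Flies mutant for whd are known to be sensitive to starvation. Pdp1 is best known for activating the clock gene Clk, and PAR bZIP proteins are known to bind palindromes close to TTACGTAA.

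The sequences below were read from the Release 6 genome and are shown because they lie at the strongest summits of valine breakdown or contrast with them. Capitals mark matches to TTRYRYAA, where R is A or G and Y is C or T. The first is the 30 bases around the match at the Hibch summit, followed by those at the 3 strongest summits of the other branched-chain amino acid genes.
Hibch site (chr3R:15357237-15357266, + strand): ctaaaattctaTTGCGCAAcgctgaatttc
BckdhA site (chr3R:9555782-9555811, + strand): atggtattgtgTTGCGTAAtcagctgggaa
CG7430 site (chr3L:17847278-17847307, + strand): cgcccctcaagTTATGCAAtctaacctcac
Dbct site (chrX:15086347-15086376, + strand): caacaccgctgTTATGTAAtctcacaaaca
The window within 50 bp of the Mcad summit is shown as the member summit with the largest ratio of worst to best replicate rank. The 100 bases before the TSS of Hibch lie inside its peak, and those before the TSS of CPT2 belong to the member without a line in any list. None of these 3 held a TTRYRYAA match.
Mcad summit (chr3L:7718719-7718819, + strand): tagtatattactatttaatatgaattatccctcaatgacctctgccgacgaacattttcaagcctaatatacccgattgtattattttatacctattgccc
Hibch upstream (chr3R:15357129-15357228, + strand): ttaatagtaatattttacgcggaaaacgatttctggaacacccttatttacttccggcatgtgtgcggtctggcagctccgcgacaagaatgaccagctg
CPT2 upstream (chr3L:2980922-2981021, + strand): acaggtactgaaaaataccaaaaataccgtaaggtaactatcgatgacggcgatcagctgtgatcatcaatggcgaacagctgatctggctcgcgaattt

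Of the 6 genes, 5 had an optimal summit and CPT2 had none. The same 5 were counted when only summits within 1 kb of a TSS were taken. Over all protein-coding genes, 47.9% had a summit by the full rule and 44.1% by the TSS window alone. Among 2525 genes as long as the 5 shorter members, the share was 49.2%. Since the genes were proposed with these lists in view, nothing is read from the difference. The 12 summits lay in 11 intervals, 9 of them within 1 kb of a TSS and 3 only in the gene body, and whd alone held 7. Signals in the pooled replicates ran from 174 at Mtpbeta to 5557 at Hibch, against a range of 159 to 11903 and a median of 331 over the optimal list. Hibch and whd were the 2 members with a summit among the 1358 strongest, as had 10.8% of protein-coding genes.

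**Figure D1:**
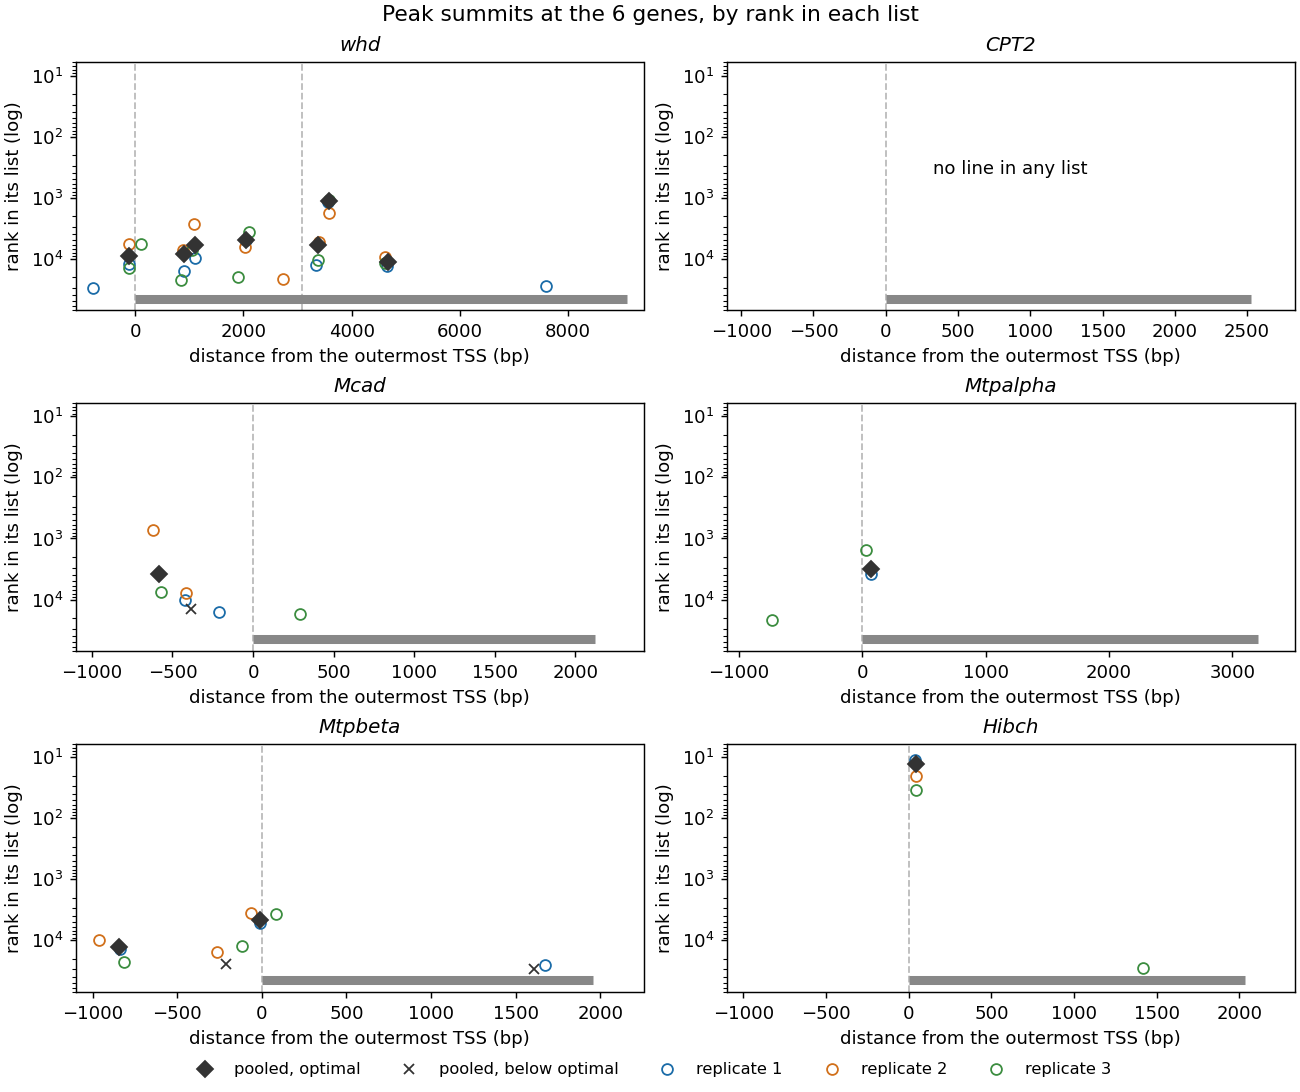
Rank of each summit (y axis, log scale, strongest at the top) against distance from the outermost TSS in bp along the gene (x axis) for the 6 genes; diamonds are optimal summits, crosses are pooled lines below the optimal list, circles are the 3 replicates, grey bars are the genes and dashed lines their TSSs. The 7 whd summits spread over both TSSs, Hibch has a single summit near rank 13, and CPT2 has no line in any list.

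Hibch, on chromosome arm 3R (FBgn0038326, chr3R:15357229-15359263, + strand, Release 6 assembly), had a single optimal summit at 15357271, 42 bp downstream of its TSS and in the 5' UTR. Its pooled signal of 5557 was rank 13. In replicates 1, 2 and 3 the matching lines had signals of 3200, 1622 and 747 and stood at ranks 11, 20 and 35, each with its summit within 1 bp of the pooled one. The mean rank was 22 ± 12.1 (SD, n = 3), the highest of the 6 genes in every list. Only 16 protein-coding genes, Hibch among them, had a strongest summit at that rank or above. The summit also lay 347 bp from the TSS of Atg4b, a cysteine protease of autophagy on the opposite strand, so it cannot be assigned to Hibch alone. The TTGCGCAA shown above was centred 19 bp from the summit. That exact palindrome occurred within 50 bp of 1.08% of all optimal summits and in 0.155% of windows 300 bp away.

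The carnitine step is covered by whd and CPT2. In whd (FBgn0261862, chr2R:10469473-10478567, − strand) the strongest summit lay at 10474978, in an intron and 503 bp downstream of the inner TSS. Its pooled signal was 1006, rank 1147. The replicate signals were 629, 216 and 174 and the ranks 1158, 1813 and 1105, a mean of 1359 ± 394 (SD, n = 3). A TTATGTAA was centred 15 bp from this summit, the single member summit with the stricter word TTAYGTAA, which 12.0% of all optimal summits held. The wider TTRYRYAA was found at 3 of the 12 member summits, here, at a weak whd intron summit (TTATACAA, 22 bp away) and at Hibch, against 35.8% of all optimal summits and 4.77% of windows 300 bp away. The other 9 member summits held no such match in this window.

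The other 6 whd summits had pooled ranks from 4962 to 11375. The second strongest, 1041 bp upstream of the inner TSS, ranked 5017, 6541 and 3712 in the replicates. A summit 1112 bp downstream of the outer TSS ranked 9842, 2668 and 7059, higher in replicate 2 than in the others. A summit 114 bp upstream of the outer TSS lay in an exon of the antisense gene asRNA:CR45134, and ranked 12176, 5636 and 14019. A summit 299 bp downstream of the inner TSS shared its interval with the strongest one, had a pooled signal of 372 and ranked 12645, 5393 and 10351. The intron summit 1577 bp downstream, the weakest of the 7 with a pooled signal of 198, ranked 13385, 9442 and 11912. A summit 910 bp downstream of the outer TSS had a pooled signal of 279 and ranked 15677, 7320 and 22674. It was counted as found in every replicate because stronger lines nearer to the summit 1112 bp downstream lay within 200 bp of it. Replicate 2 gave 5 of the 7 whd summits their best rank. The TSS of asRNA:CR45134 was 386 to 638 bp from 3 of these summits, so their assignment to whd is uncertain. Genes with 7 or more optimal summits were 2.60% of protein-coding genes, and whd, at 9095 bp, is longer than the median protein-coding gene of 2166 bp. CPT2 (FBgn0035383, chr3L:2981022-2983551, + strand) had 0 lines in the pooled list and in each replicate list, as did 28.6% of protein-coding genes. The nearest optimal summit was 9276 bp from its TSS, and the nearest lines in replicates 1, 2 and 3 were 54968, 9313 and 54171 bp away. A list of fixed length cannot show whether weaker signal was present there.

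**Figure D2:**
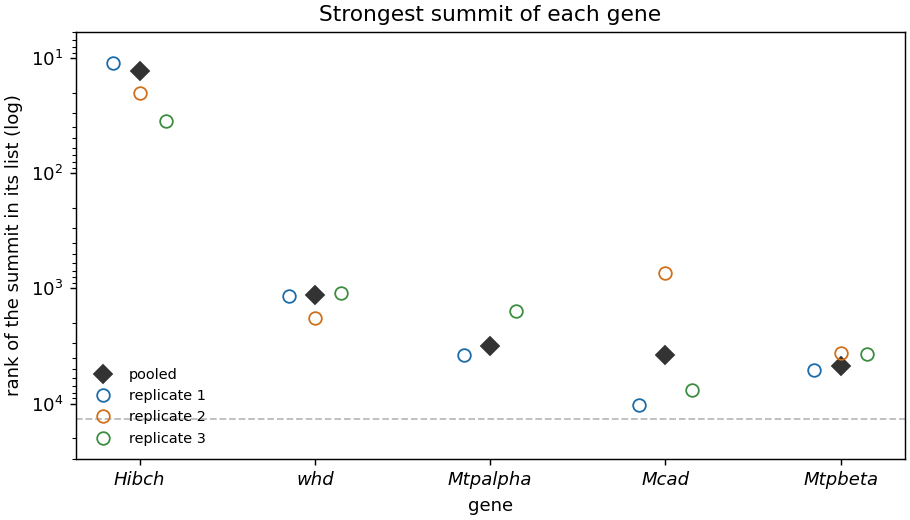
Rank of the strongest summit of each of the 5 genes with one (y axis, log scale, strongest at the top), in the pooled list (diamonds) and the matching line of replicates 1, 2 and 3 (circles); the dashed line is rank 13583, the length of the optimal list. Hibch stands at ranks 11 to 35 in the replicates, Mcad spreads from 736 to 10291, and Mtpalpha has no replicate 2 point. The Mcad rank of 10291 belongs to a replicate 1 line 157 bp from the pooled summit.

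Mcad (FBgn0035811, chr3L:7719350-7721472, + strand), the medium-chain acyl-CoA dehydrogenase, had 1 optimal summit at 7718769, 581 bp upstream of its TSS. Its pooled signal was 516, rank 3756. The replicates ranked the matching lines 10291, 736 and 7652 (signals of 137, 356 and 50.9), a mean of 6226 ± 4934 (SD, n = 3), so replicate 2 alone placed it high. The worst rank was 14.0 times the best. That ratio exceeded those of 99.5% of the 11942 summits matched in all replicates, whose median was 2.21. Positions differed as well, since the replicate 1 summit lay 157 bp from the pooled one, while those of replicates 2 and 3 lay 38 and 9 bp away. That replicate 1 line, 424 bp upstream of the TSS, was nearer to a weaker pooled line 382 bp upstream. Replicate 2 had a second line 418 bp upstream, at rank 7947. The ratio may therefore set lines of different summits against each other. With matching within 100 bp, replicate 1 had no match and the mean rank was 4194 (n = 2). The summit fell in an intron of CG32373 and was closer to the TSS of Ank2, an ankyrin of neurons on the opposite strand, at 374 bp, so its assignment to Mcad is uncertain. Mcad is 90.0 kb from Pdp1 itself, and whether the tagged transgene bears on the signal was not tested.

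Mtpalpha (FBgn0028479, chr2L:9573563-9576769, − strand) had 1 optimal summit at 9576701, 68 bp downstream of its TSS in the 5' UTR. Its pooled signal was 579, rank 3173. The matching lines ranked 3809 in replicate 1 and 1561 in replicate 3 (signals of 326 and 144), a mean of 2685 ± 1590 (SD, n = 2). Replicate 2 had no line within 200 bp, and its nearest was 5895 bp from the TSS. Of all optimal summits 6.61% lacked a replicate 2 line in the same way, and 77.2% of those were matched in both other replicates, as here. Mtpalpha therefore rests on replicates 1 and 3.

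Mtpbeta (FBgn0025352, chr2R:23866648-23868603, − strand) had an optimal summit at 23868615, 12 bp upstream of its TSS. Its pooled signal was 439, rank 4704, and the replicate signals were 261, 140 and 86.0. The ranks of 5112, 3612 and 3718 gave a mean of 4147 ± 837 (SD, n = 3), with a worst-to-best ratio of 1.42. The replicate 3 summit lay 97 bp away and downstream of the TSS. A second summit, 843 bp upstream, was the weakest of the 12, with a pooled signal of 174 at rank 12658 and replicate ranks of 13912, 9870 and 22404. It lay 827 bp from the TSS of ken, a BTB zinc-finger repressor on the opposite strand. Among pooled lines at the 6 genes that missed the optimal list, the strongest lay 382 bp upstream of the Mcad TSS, with a signal of 148 at rank 14356.

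By mean replicate rank the order was Hibch, whd, Mtpalpha, Mtpbeta and Mcad. The Mcad mean includes the replicate 1 line 157 bp from its pooled summit. With matching within 100 bp that mean was 4194 (n = 2), close to the 4147 of Mtpbeta. The replicate ranks of Hibch (11 to 35) overlapped those of no other member. Neighbours further down the order did overlap: whd (1105 to 1813) with Mtpalpha (1561 to 3809), Mtpalpha with Mtpbeta (3612 to 5112), and Mcad (736 to 10291) with all 3. Of the 12 summits, 9 were found among the 13583 strongest lines of every replicate within 200 bp, compared with 60.6% of all optimal summits. They belonged to 4 genes (whd, Mcad, Mtpbeta and Hibch), and 37.7% of protein-coding genes had such a summit. Mcad was counted through a replicate 1 line 157 bp away, and was not counted within 100 bp. The 3 that failed were the Mtpalpha summit, the upstream Mtpbeta summit and the whd summit 114 bp upstream of the outer TSS.

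**Figure D3:**
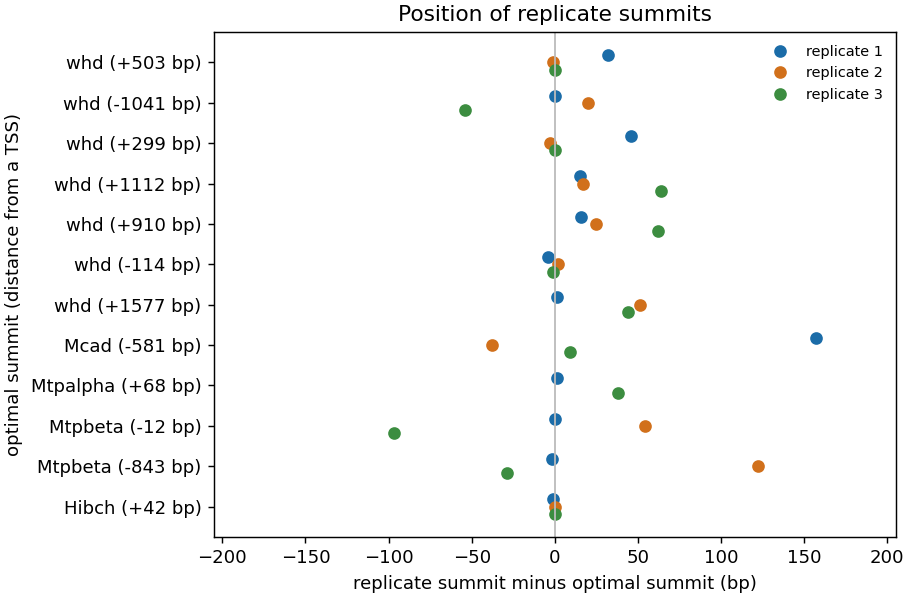
Distance in bp along the + strand of the genome from each of the 12 optimal summits (rows, named by gene and distance from a TSS) to the matching summit of each replicate (points). The 3 Hibch points lie within 1 bp of the pooled summit, while replicate 1 at Mcad lies 157 bp away; over all matched summits the median distance was 5, 15 and 16 bp in replicates 1, 2 and 3.

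For each member the 2 protein-coding genes with the most similar rank profile were found, by Euclidean distance of log10 ranks over the 4 lists. Hibch was nearest to Pp2C1 (distance 0.221, ranks 14, 13, 18 and 22 in the pooled list and replicates 1, 2 and 3) and CG5916 (0.340), and whd to CG12851 and CG2790, which share 1 summit (0.0417). Mcad was nearest to CG10467 and loj, which also share 1 summit, at 0.0657. Its ranks of 3427, 9755, 679 and 8220 spread between replicates in the same order. Mtpbeta was nearest to CG32267 and CG42324 at 0.0644, again a pair with the same ranks in all 4 lists. For Mtpalpha the match used 3 lists, and CG5541 (0.214) and CG42496 (0.259) came nearest. These were chosen from 6048 to 6050 genes, or 237 for Mtpalpha.

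Among 32 other genes of fatty acid oxidation, 26 had an optimal summit (81.2%) and 24 had one found in every replicate, against 47.9% and 37.7% of all protein-coding genes. Their strongest summits had a median rank of 3238, against 3782.5 over all protein-coding genes with one. At the strongest summit of each gene, TTRYRYAA was held by 8 of the 26, beside 35.8% of all optimal summits, a share not matched for strength. In the carnitine shuttle, colt, the carnitine-acylcarnitine carrier, stood at rank 659, CRAT, carnitine acetyltransferase, at 9971, and CROT had none. Of 14 mitochondrial enzymes and electron carriers 12 had a summit, led by Echs1 (an enoyl-CoA hydratase, rank 299), wal (electron transfer flavoprotein alpha, 408) and Etf-QO (its ubiquinone oxidoreductase, 531), and CG4594 and Dci had none. Echs1 ranked 222, 640 and 498 in the replicates. Of 9 peroxisomal genes 7 had a summit, among them CG4586 (1159) and Acox3 (2586), and Acox57D-d was among those with none. Of 6 acyl-CoA synthetases 5 had one, led by Acsl (558), Acsf2 (1199) and pdgy (2376), and hll had none.

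All 13 matched genes of branched-chain amino acid breakdown other than Hibch had an optimal summit and one found in every replicate, against 47.9% and 37.7% of protein-coding genes. The median rank of their strongest summits was 775, and 9 of the 13 had one among the 1358 strongest, as did 10.8% of protein-coding genes. At the strongest summit of each gene, TTRYRYAA was held by 6 of the 13, beside 35.8% of all optimal summits, again not matched for strength. The leading 3, shown above, encode subunits of the branched-chain keto acid dehydrogenase, while BckdhB, its E1 beta subunit, named after its value was seen, stood lower, at rank 775 with 1118, 486 and 1184 in the replicates. BckdhA (E1 alpha) had a signal of 2989, rank 98, with replicate ranks of 102, 85 and 332 and its summit at the TSS. CG7430, the dihydrolipoyl dehydrogenase (E3) that other dehydrogenase complexes also use, stood at rank 110, with 89, 225 and 125 in the replicates. Dbct, the E2 transacylase, stood at rank 136, with 101, 488 and 112. The enzymes that follow Hibch, CG15093 (3-hydroxyisobutyrate dehydrogenase, rank 985) and CG17896 (methylmalonate semialdehyde dehydrogenase, rank 184), were picked out after their values were seen. Their replicate ranks were 640, 3137 and 2597 for CG15093 and 157, 237 and 284 for CG17896.

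Many of these summits also lay near another gene. The strongest summit was within 1 kb of another protein-coding gene's TSS for 7 of the 13 branched-chain genes (53.8%) and 11 of the 26 fatty acid oxidation genes (42.3%), compared with 54.1% of all genes with a TSS summit. For Acsl, bgm, Fatp1 and Bcat the strongest summit lay more than 1 kb from their own TSSs. The 2 list shares are therefore not limited to TSS summits. BckdhA shared its summit with CG9386, Dbct with CG15027 and CG7430 with MED19. The genes in each list were chosen for their pathway with earlier results known, and their counts are descriptions.

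**Figure D4:**
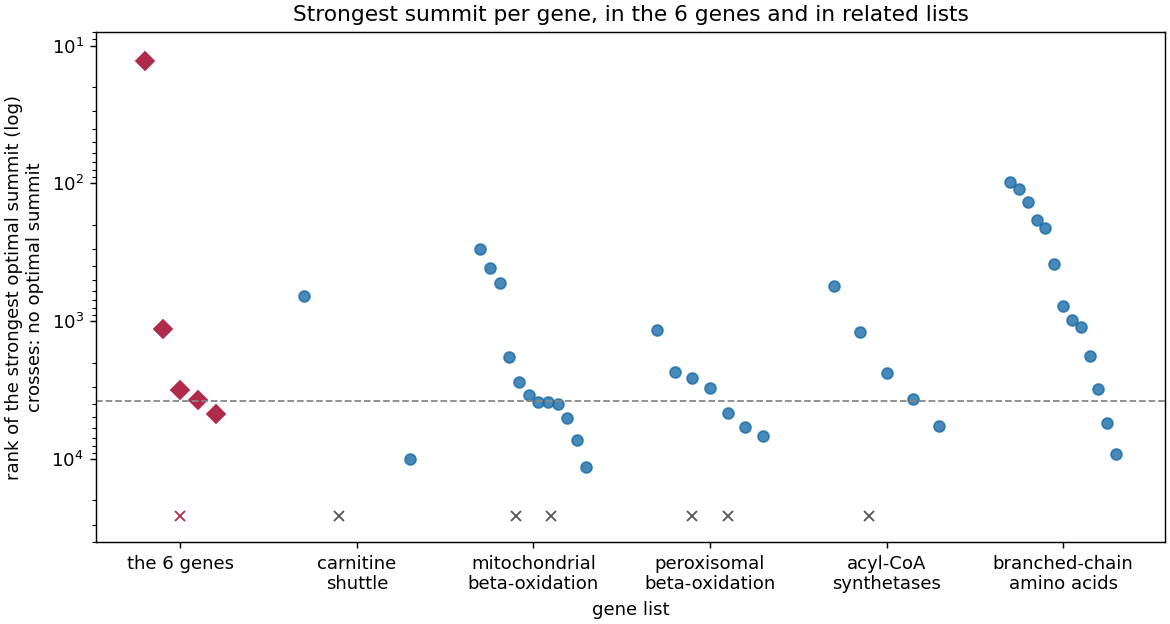
Rank of the strongest optimal summit of each gene (y axis, log scale, strongest at the top) in the 6 genes and in 5 related gene lists; each point is a gene, crosses are genes with no optimal summit, and the dashed line is the median rank of 3782.5 over all protein-coding genes with one. Hibch stands highest, and 9 of 13 branched-chain genes lie among the 1358 strongest summits.

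In promoters, taken as 250 bases before to 50 after each TSS, TTRYRYAA occurred in 13.9% and TTAYGTAA in 2.49% of 19607. Of the 7 member promoters 2 held TTRYRYAA, those of Hibch and of the outer whd TSS, and 0 held TTAYGTAA. Other words searched within 50 bp of the member summits were CAGCTG, found at 3 (Hibch, the Mtpbeta summit at the TSS and the whd summit 1041 bp upstream), against 5.68% of all optimal summits and 4.32% of windows 300 bp away. TATCGATA, CACGTG and TGACGTCA were found at 0 of the 12, and at 1.91%, 1.37% and 0.383% of all optimal summits.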

How the data were processed

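Anti-GFP ChIP-seq of embryos with tagged Pdp1 was deposited by the authors as peak lists on the Release 6 assembly for 3 replicates, their pool and an optimal list. Peaks were called against a control alignment per the deposited file records, and the sources used here do not name the caller or the aligner. Deposited signal is the authors' value per peak, used to rank peaks within a list, and their deposited −log10 q, 4.43 at each member summit, was not tested. Lists on another assembly were not used.

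Gene models were Ensembl release 115 (BDGP 6.54) and coordinates are 1-based. None of 133565 intervals ended past an arm end of the genome used. For values and ranks, each optimal summit was paired with the nearest replicate summit within 200 bp. A summit was found in every replicate when one of the 13583 strongest lines of each lay within 200 bp, including lines paired with a neighbouring summit. The motif search covered both strands in the 50 bp on either side of a summit, and control windows lay 300 bp away. TTAYGTAA matches are also TTRYRYAA matches. Analyses used Python 3.11.15, numpy 2.4.6 and pandas 2.3.3, and the matching was tested on simulated data.

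The 6 genes, the gene lists and the naming rule were chosen with earlier results of these data known. Named were the members, genes with a TSS within 1 kb of a member summit, up to 3 genes of highest signal per list, those without a summit where 5 or fewer, and the 2 genes of nearest profile. Some genes that this rule names are not reported here. Of 15 branched-chain genes sought, 13 were matched by name. The labels do not say whether replicates came from separate collections, so their spread may be partly technical. Depth was unknown, so no counting intervals are given.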

Additional observations from a re-analysis of the deposited data

How the results depend on the processing

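Of 59 alternatives, 57 stayed within 1.5 times the reported count or within 1 SD between replicates of the reported mean rank. Leaving out 1 replicate cannot move a mean of so few ranks by 1 SD, so those mean-rank alternatives could not have failed. The other mean-rank alternatives repeated the reported value, except Mcad at 4194 with summits within 100 bp. For mean ranks the tally therefore says little about stability. The other 2 came from requiring replicate summits within 50 bp in place of 200 bp, which lowered the member summits found in every replicate from 9 to 3 and the members with one from 4 to 2. Within 100 bp these were 7 and 3, and with whole replicate lists 11 and 4. Leaving out 1 replicate at a time gave 9 to 10 summits and 4 to 5 members. The mean rank then ran from 15.5 to 27.5 for Hibch, 1131.5 to 1485.5 for whd, 3665 to 4415 for Mtpbeta, 1561 (without replicate 1) to 3809 (without replicate 3) for Mtpalpha and 4194 to 8971.5 for Mcad, the highest without replicate 2. The optimal list cut to its 6791 strongest summits left 5 members and 8 summits. With a TSS window of 500 bp, 4 members and 10 summits were left and Mcad was lost. In the gene lists, within 50 bp (added after seeing the data), 22 fatty acid oxidation and 11 branched-chain genes had a summit in every replicate. Lists of fixed length and unknown depth limit what absence from a list can show. No paired analysis was possible because the series held 1 group.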

Other observations

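Of 48 replicate lines at the 6 genes, 10 lay more than 200 bp from every optimal summit. The strongest of these was a replicate 3 line 104 bp downstream of the outer whd TSS, at rank 5677 and 218 bp from the nearest optimal summit. Next came a replicate 2 line 267 bp upstream of the Mtpbeta TSS, at rank 15672 and 255 bp from the nearest optimal summit. Replicate 1 had a line 1672 bp downstream of the Mtpbeta TSS (rank 25628). Others were a replicate 2 line 348 bp upstream of the inner whd TSS (rank 21160) and a replicate 1 line 211 bp upstream of Mcad (rank 15892). Replicate 3 had lines 291 bp downstream of the Mcad TSS (rank 17156) and 1417 bp downstream of the Hibch TSS (rank 28637). At Mtpalpha, replicate 3 had such a line 735 bp upstream (rank 21845). No line of the kind was present at CPT2.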
